A study of Ovis aries with 6 samples.

Results

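The 8 genes described here, which bring glucose into a cell and set the pace of its breakdown, were followed across the cell layers of the sheep rumen wall. They are the glucose transporters SLC2A1 and SLC2A3, the hexokinases HK1 and HK2, the regulator PFKFB3 and the platelet-type phosphofructokinase PFKP, the lactate dehydrogenase subunit LDHA and the pyruvate dehydrogenase kinase PDK4. The NCBI gene numbers in the files were matched to symbols, and all 8 genes were found among 26741 gene rows. They were chosen with their difference between the groups already known, so their levels and differences are given as a description, without a test. The libraries are droplet libraries, titled scRNAseq in the labels but described there as nuclear RNA with nucleus isolation and therefore called nuclei below, from rumen epithelium of the ventral sac of 6 male sheep, 1 library per animal. The animals fall into the groups MGHS (3 animals) and MGNS (3 animals), which the labels tie to a treatment without spelling out the names, in a series on grazing sheep and supplementary feeding. The labels used here give no age, strain or genotype and say that the animals were drawn at random from each group.

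Glucose crosses the plasma membrane through carriers of the SLC2A family, is trapped by hexokinase as glucose 6-phosphate, and is committed to glycolysis by phosphofructokinase, which the product of PFKFB3 activates. LDHA turns pyruvate to lactate, whereas PDK4 holds pyruvate back from the mitochondrial oxidation step by phosphorylating pyruvate dehydrogenase. The rumen lining is a stratified epithelium in which basal cells divide, spinous and granular cells mature and a cornified layer forms the luminal surface, and it absorbs and burns short-chain fatty acids from fermentation.

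The files held 67553 barcodes, and 41822 nuclei remained after filtering and removal of 3661 doublets, with medians of 3123 to 4217 UMIs per nucleus in MGHS animals and 3268 to 4764.5 in MGNS animals. Clustering gave 22 clusters, and 13626 nuclei were keratinocyte-like. In the basal-like class 10 of 11 basal markers were at least 2-fold above the other clusters, in the spinous-like class 8 of 9 spinous markers, in the granular-like class 12 of 14 granular markers, and in the cycling keratinocyte-like class 9 of 9 cycling markers. Classes are called "-like" since transcripts alone define them. Cluster 8 (median 766 UMIs, led by PLEK, CXCL8, C5AR1 and PTAFR), cluster 10 (median 586 UMIs, with KRT36 and KRTDAP among its leading genes), cluster 11 (RSPO3, MYH11, HHIP) and cluster 21 stayed unnamed. Cluster 10 was uneven, with 3264 of its 5404 nuclei from MGHS 3. Pairs of libraries shared 19 to 49 barcodes. Levels are given in CPM, a gene's UMIs relative to all UMIs of the same animal and class, summed per animal and class over 16 classes with at least 20 nuclei in every animal. CPM do not correct for transcript length, so each gene is compared with itself only.

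Over all keratinocyte-like nuclei, SLC2A1, SLC2A3, HK2, PFKFB3 and PDK4 were lower in all 3 MGHS animals than in any MGNS animal, whereas HK1, with a higher mean in MGHS, PFKP and LDHA overlapped between the groups. The groups thus did not overlap for 5 of the 8 genes, each with MGHS lower, and for none with MGHS higher. Over all 16319 genes tested there, 25.0% did not overlap with MGHS lower and 4.99% with MGHS higher. On CPM rescaled by the TMM normalisation factors the same 5 genes did not overlap, against 13.1% of all genes lower and 11.1% higher. The median log2 ratio over all genes was -0.19 on plain CPM and 0.02 after TMM scaling, so plain CPM place most genes slightly lower in MGHS. The median log2 fold change of the 8 genes was -1.03, beside 0.02 over all genes tested. edgeR's quasi-likelihood test with Benjamini-Hochberg adjustment called 0 genes (0.0%) between MGHS and MGNS in these nuclei, the 8 genes included, with 2862 genes at an unadjusted p under 0.05. DESeq2 called 1007 genes (6.17%), among them SLC2A1, HK2, PFKFB3 and PDK4. Because this contrast chose the genes, nothing is read from these counts.

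**Figure D1:**
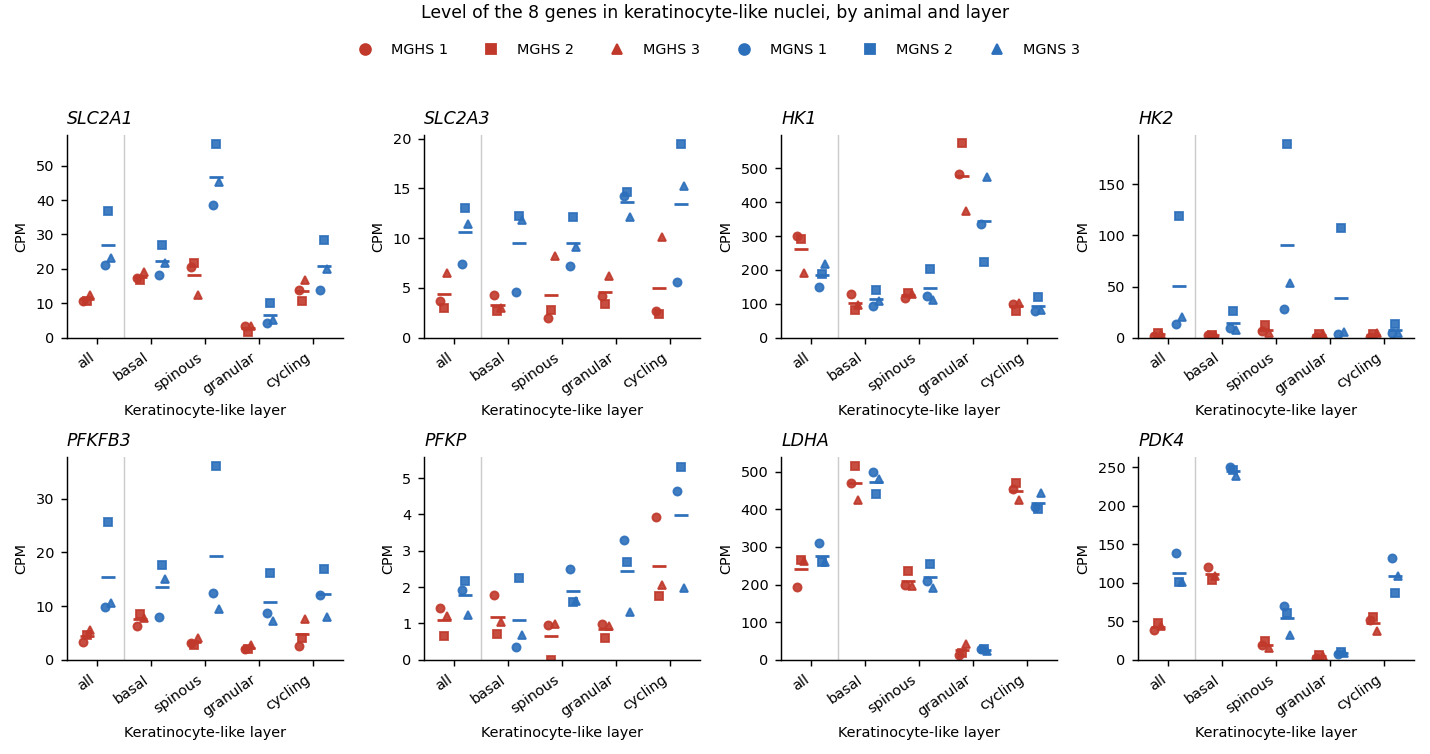
CPM (y axis) of each gene in all keratinocyte-like nuclei and in the 4 layers (x axis), with 1 point per animal (MGHS red and left, MGNS blue and right) and a bar at the group mean. PDK4 is highest in the basal-like layer with MGHS animals at 104 to 120 and MGNS animals at 239 to 251, HK1 is highest in the granular-like layer, and MGNS 2 stands above the other animals for HK2.

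The genes whose groups did not overlap are given for each layer, and differences between layers were not tested. In basal-like nuclei SLC2A3, HK2 and PDK4 did not overlap, 3 of 7 genes tested, all lower in MGHS, beside 16.1% of all genes lower and 7.29% higher (10.7% and 10.8% after TMM scaling, with the same 3 genes). In spinous-like nuclei SLC2A1, HK2, PFKFB3 and PDK4 did not overlap, 4 of 7, beside 15.3% lower and 6.67% higher (10.8% and 9.74% after TMM scaling, with the same 4 genes). In granular-like nuclei 5 of 7 did not overlap on plain CPM, beside 16% lower and 4.25% higher, and only SLC2A3 and PFKFB3 after TMM scaling, beside 12.1% lower and 9.36% higher. In cycling keratinocyte-like nuclei PFKFB3 and PDK4 of 6 genes were lower without overlap on plain CPM, beside 15.8% lower and 6.06% higher. After TMM scaling PDK4 was lower and LDHA higher in cycling nuclei, beside 9.91% lower and 10% higher. PFKP passed the count filter in none of the 4 layers, and HK2 did not pass it in cycling nuclei. edgeR called 6 genes in basal-like (0.0439%), 9 in spinous-like (0.0713%), 1 in granular-like (0.00822%) and 9 in cycling nuclei (0.087%), and none of the 8 genes was among them. DESeq2 called 307 (2.25%), 368 (2.92%), 508 (4.17%) and 184 (1.78%) genes in the same order of layers. These included HK2 and PDK4 in basal-like nuclei, SLC2A1, HK2, PFKFB3 and PDK4 in spinous-like nuclei, SLC2A3 and PFKFB3 in granular-like nuclei and PDK4 in cycling nuclei. The same contrast chose the genes, so the counts are read no further.

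SLC2A1, the basal glucose carrier of most tissues, had its highest mean level of the 4 layers in spinous-like nuclei. It was higher in spinous-like than in granular-like nuclei in 6 of 6 animals, with a mean ratio of 6.96, and higher than in basal-like nuclei in 5 of 6. MGHS 3 was the exception, and in MGHS animals the spinous-like and basal-like means were close, at 18.3 and 17.7 CPM. The granular-like layer held the lowest level of the 4 layers in every animal. In spinous-like nuclei SLC2A1 stood at 20.6, 21.7 and 12.5 CPM in MGHS 1 to 3, against 38.7, 56.2 and 45.1 CPM in MGNS 1 to 3. All MGHS animals lay below all MGNS animals, with a log2 fold change of -1.24 ± 0.26 (SE). In basal-like nuclei the means were 17.7 ± 1.13 CPM in MGHS and 22.3 ± 4.43 CPM in MGNS (SD, n = 3 each), and the groups overlapped. Over all keratinocyte-like nuclei SLC2A1 had 10.6, 10.7 and 12.4 CPM in MGHS animals, against 21.2, 36.7 and 23.1 CPM in MGNS animals, a log2 fold change of -1.01 ± 0.23 (SE). With the 4 layers weighted equally the change was -0.69. Outside the epithelium cluster 8 had the highest mean level of SLC2A1 (39.0 CPM, 78 UMIs in all), which did not differ from spinous-like nuclei beyond the spread of the animals.

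SLC2A3, the high-affinity carrier typical of neurons and leukocytes, was highest in blood endothelial-like nuclei, some immune classes and the unnamed clusters 8 and 21. Its mean level was 907 CPM in cluster 8, 369 CPM in blood endothelial-like, 277 CPM in T or NK-like, 252 CPM in macrophage or dendritic-like nuclei and 239 CPM in cluster 21. The ranges of these neighbours overlapped, whereas the lowest animal of cluster 21 (138 CPM) lay above the highest of the next class, smooth muscle or pericyte-like nuclei (100 CPM). B or plasma-like nuclei (42.6 CPM) and lymphatic endothelial-like nuclei (25.3 CPM) had lower means than smooth muscle or pericyte-like nuclei (65.8 CPM). The 4 keratinocyte layers took the last 4 of 16 places, with means of 6.41 to 9.22 CPM. In all keratinocyte-like nuclei SLC2A3 had 3.69, 2.96 and 6.49 CPM in MGHS animals, against 7.40, 13 and 11.4 CPM in MGNS animals, with a log2 fold change of -1.05 ± 0.32 (SE). In granular-like nuclei it had 4.18, 3.40 and 6.20 CPM in MGHS animals, against 14.3, 14.6 and 12.1 CPM in MGNS animals. Macrophage or dendritic-like nuclei were lower too, at 215, 92.4 and 134 CPM in MGHS animals, against 257, 238 and 578 CPM in MGNS animals, without overlap.

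**Figure D2:**
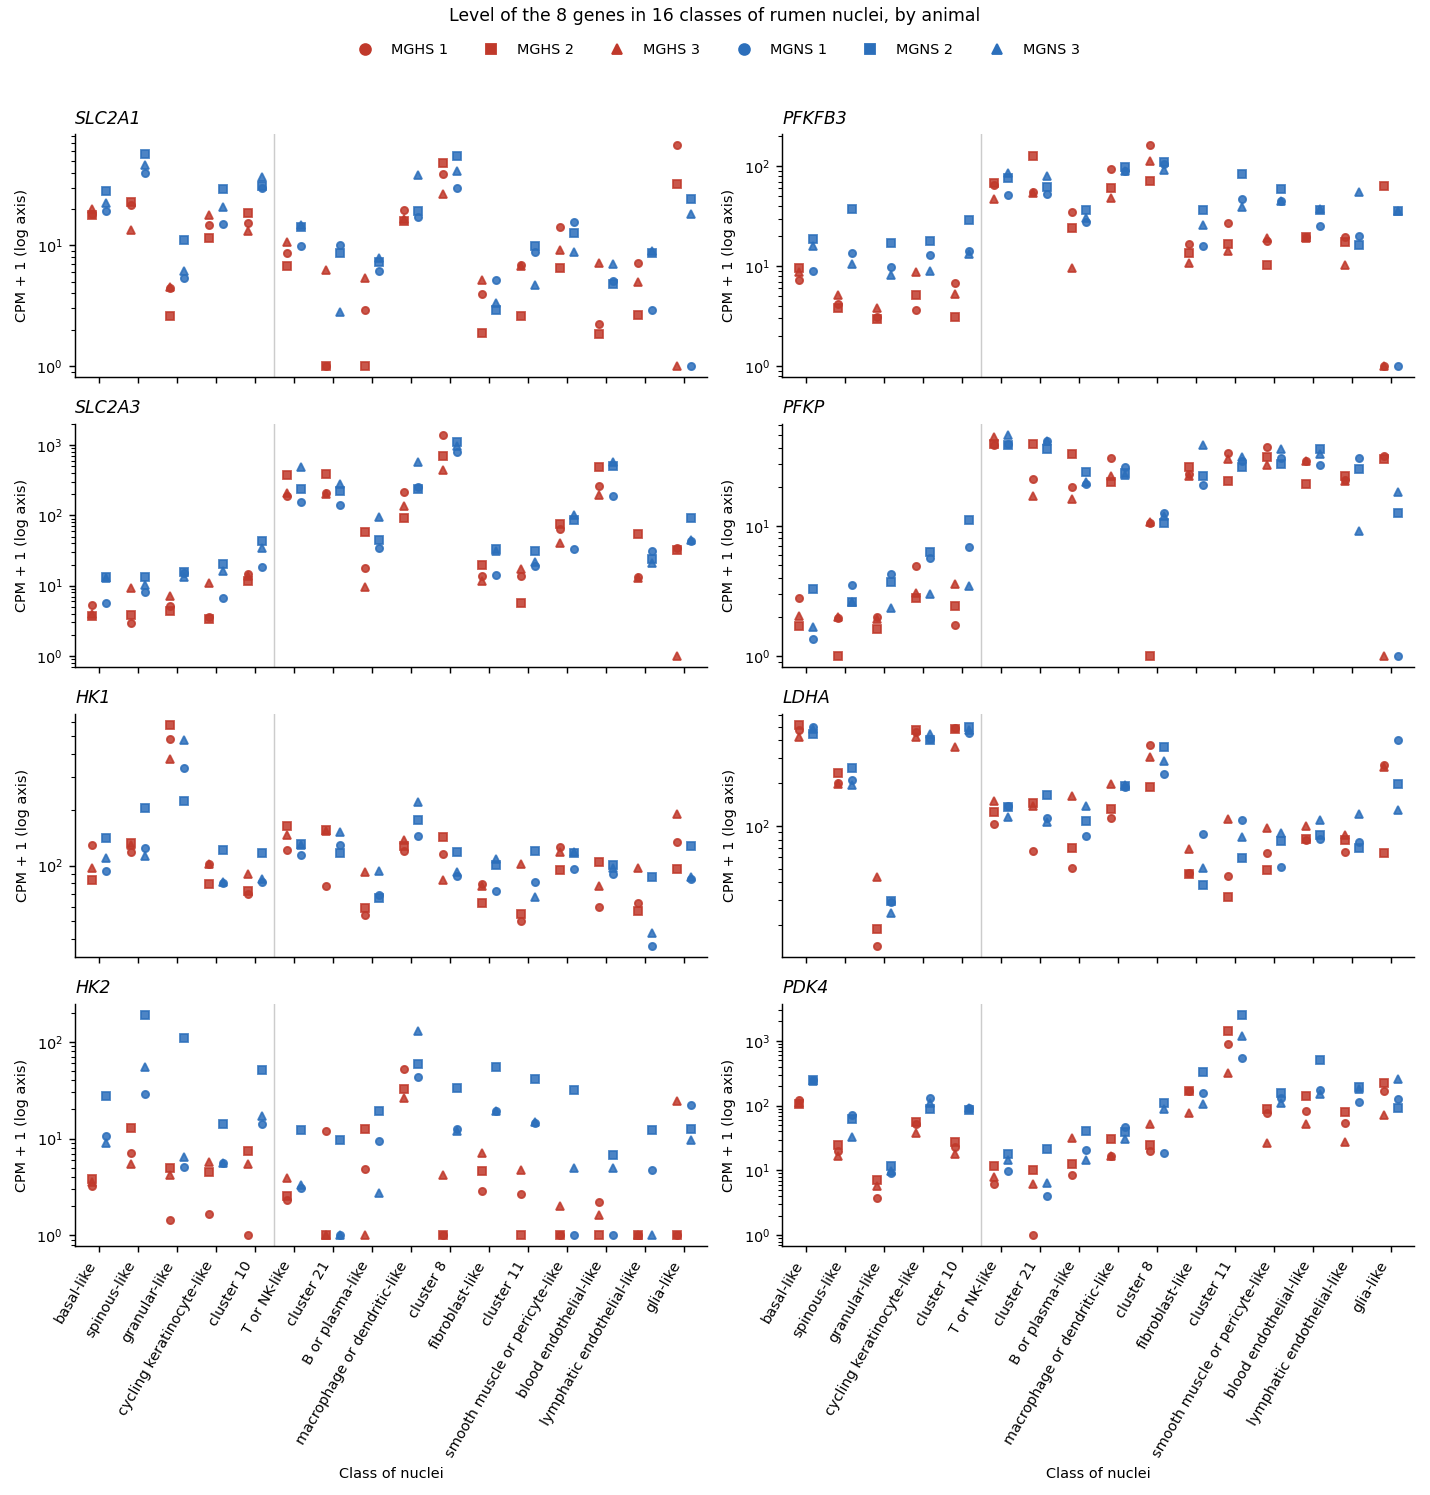
CPM + 1 on a log axis (y) of each gene in 16 classes of nuclei (x), with 1 point per animal (MGHS red and left, MGNS blue and right). The 4 keratinocyte-like classes and cluster 10 are left of the grey line. Among the 4 keratinocyte-like classes HK1 is highest in granular-like and LDHA in basal-like nuclei. SLC2A3, PFKFB3 and PFKP reach their lowest means in keratinocyte-like classes, and PDK4 is highest in cluster 11, with a mean of 1145 CPM.

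HK1, the widely expressed hexokinase that docks on mitochondria, was found in all 16 classes and had its highest mean in granular-like nuclei. Its mean of 411 CPM in granular-like nuclei compared with 153 CPM in the next class, macrophage or dendritic-like nuclei, and the lowest granular animal (222 CPM) lay above the highest of that class (219 CPM). Within the epithelium HK1 was higher in granular-like than in basal-like nuclei in 6 of 6 animals, with a mean ratio of 3.80. It was higher than in spinous-like nuclei in 6 of 6 too, with a mean ratio of 3.03 and a lowest ratio of 1.1. In granular-like nuclei it had 482, 574 and 375 CPM in MGHS animals, against 337, 222 and 475 CPM in MGNS animals, so the groups overlapped. In all keratinocyte-like nuclei HK1 had 301, 292 and 191 CPM in MGHS animals, against 150, 186 and 217 CPM in MGNS animals. MGHS 1 and MGHS 2 were above every MGNS animal and MGHS 3 was among them, with a log2 fold change of 0.78 ± 0.30 (SE). Granular-like nuclei were 16.8%, 15.5% and 9.5% of all nuclei in MGHS animals, against 5.22%, 6.06% and 8.55% in MGNS animals. With the 4 layers weighted equally the log2 fold change of HK1 was 0.23. In basal-like and spinous-like nuclei it was -0.04 ± 0.20 and -0.08 ± 0.21 (SE).

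HK2, the inducible hexokinase, differed most between the groups and most among the MGNS animals. In spinous-like nuclei, the layer with its highest mean, it had 6.11, 11.9 and 4.5 CPM in MGHS animals, against 28.0, 189 and 53.8 CPM in MGNS animals. All MGHS animals were lower, and MGNS 2 was far above the other MGNS animals. The log2 fold change was -3.47 ± 0.75 (SE), and -2.43 without MGNS 2. In basal-like nuclei HK2 had 2.25, 2.80 and 2.58 CPM in MGHS animals, against 9.67, 26.5 and 7.92 CPM in MGNS animals, with a log2 fold change of -2.37 ± 0.47 (SE), and -1.71 without MGNS 2. In granular-like nuclei it had 0.440, 4.0 and 3.16 CPM in MGHS animals, against 4.02, 107 and 5.47 CPM in MGNS animals. That difference rested on MGNS 2, since the log2 fold change of -3.64 ± 1.35 (SE) became -0.58 without it. Over all keratinocyte-like nuclei it was -3.63 ± 0.87 (SE), and -2.09 without MGNS 2. MGNS 2 had the highest HK2 level of the 6 animals in 13 of 16 classes.

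The HK2 difference was in the share of nuclei with the transcript as well as in the UMIs per nucleus, the latter counted without thinning. After each nucleus was thinned to 1000 UMIs, 0.931%, 1.01% and 0.394% of spinous-like nuclei of MGHS animals held an HK2 UMI, against 2.89%, 12.6% and 4.30% in MGNS animals. Unthinned, the shares were 3.15%, 6.27% and 3.01% in MGHS animals, against 15%, 43.3% and 19.4% in MGNS animals. Blood endothelial-like nuclei, the class with the lowest HK2 level, gave thinned shares of at most 0.0931% in MGHS and 0.484% in MGNS animals. Median depths per spinous-like nucleus were 8983, 8397 and 8822 UMIs in MGHS animals, against 12297, 11321 and 8774 UMIs in MGNS animals. Those per blood endothelial-like nucleus ran from 3212 to 5973.5 UMIs. Thinning left out 34 of 1215 MGHS and 62 of 1883 MGNS spinous-like nuclei for lack of UMIs. Spinous-like nuclei with the transcript carried 1.73, 1.62 and 1.44 HK2 UMIs each in MGHS animals, against 2.33, 4.91 and 2.52 in MGNS animals, and the highest single nucleus had 42, in MGNS 2.

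PFKFB3, the kinase-phosphatase that makes the activator of phosphofructokinase, and PFKP, a phosphofructokinase subunit, were both low in keratinocytes. PFKFB3 averaged 109 CPM in cluster 8 and 78.6 CPM in macrophage or dendritic-like nuclei, and 6.51 to 11.4 CPM in the 4 keratinocyte layers. In spinous-like nuclei PFKFB3 had 3.21, 2.80 and 4.11 CPM in MGHS animals, against 12.5, 36.1 and 9.47 CPM in MGNS animals. All MGHS animals were lower and MGNS 2 was again the highest, with a log2 fold change of -2.35 ± 0.51 (SE), and -1.60 without MGNS 2. Over all keratinocyte-like nuclei PFKFB3 had 3.36, 4.61 and 5.50 CPM in MGHS animals, against 9.77, 25.8 and 10.5 CPM in MGNS animals, a log2 fold change of -1.52 ± 0.39 (SE), and -0.96 without MGNS 2. PFKP averaged 43.5 CPM in T or NK-like nuclei and 1.14 to 3.28 CPM in the keratinocyte layers. Its level in all keratinocyte-like nuclei was 1.10 ± 0.402 CPM in MGHS and 1.78 ± 0.484 CPM in MGNS (SD, n = 3 each), from 13 to 33 UMIs per MGHS animal and 22 to 54 UMIs per MGNS animal. The groups overlapped, and at this depth no difference in PFKP was detectable over all keratinocyte-like nuclei.

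**Figure D3:**
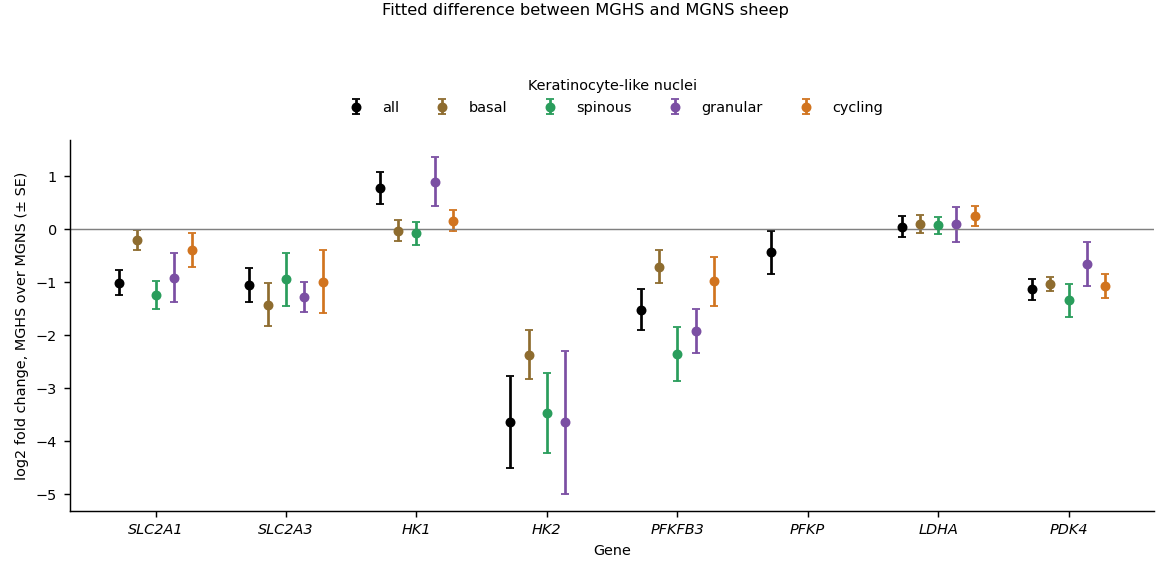
Fitted log2 fold change of MGHS over MGNS with its standard error (y) for each gene (x) in all keratinocyte-like nuclei and in each layer. The 5 genes SLC2A1, SLC2A3, HK2, PFKFB3 and PDK4 lie below 0 in each layer where they were tested, LDHA lies near 0, and HK1 lies above 0 mainly in the granular-like layer.

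LDHA, which makes lactate from pyruvate, ran opposite to HK1 across the layers and was close between the groups. It averaged 472 CPM in basal-like and 434 CPM in cycling keratinocyte-like nuclei, 215 CPM in spinous-like nuclei and 25.7 CPM in granular-like nuclei, the lowest of all 16 classes. The basal level was above the granular level in 6 of 6 animals, with a mean ratio of 18.4. In basal-like nuclei LDHA had 469, 514 and 425 CPM in MGHS animals, against 499, 441 and 481 CPM in MGNS animals. The groups overlapped, with a log2 fold change of 0.10 ± 0.17 (SE). Over all keratinocyte-like nuclei its levels were 194, 265 and 262 CPM in MGHS animals, against 311, 261 and 260 CPM in MGNS animals, with a log2 fold change of 0.05 ± 0.20 (SE).

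PDK4, the kinase that switches pyruvate dehydrogenase off when fat or fatty acids are burned, was highest in basal-like nuclei among the 4 layers. In basal-like nuclei it had 120, 104 and 109 CPM in MGHS animals, against 251, 247 and 239 CPM in MGNS animals, with a log2 fold change of -1.04 ± 0.14 (SE). The group levels were 111 ± 8.58 CPM in MGHS and 246 ± 6.27 CPM in MGNS (SD, n = 3 each). Leaving out 1 animal at a time kept the fold change between -1.08 and -0.99. In cycling keratinocyte-like nuclei PDK4 had 51.2, 55.2 and 37.4 CPM in MGHS animals, against 132, 86.8 and 109 CPM in MGNS animals. In spinous-like nuclei it had 19, 24.1 and 15.5 CPM in MGHS animals, against 69.9, 60.5 and 31.8 CPM in MGNS animals, with a log2 fold change of -1.34 ± 0.31 (SE). In granular-like nuclei it was near its minimum, at 4.5 ± 1.66 CPM in MGHS and 9.15 ± 1.39 CPM in MGNS (SD, n = 3 each), and the log2 fold change of -0.66 ± 0.42 (SE) was 0.00 with doublets kept. Over all keratinocyte-like nuclei PDK4 had 38.4, 47.8 and 43.3 CPM in MGHS animals, against 139, 101 and 101 CPM in MGNS animals, a log2 fold change of -1.13 ± 0.20 (SE).

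A larger share of basal-like nuclei held PDK4 in MGNS animals, and those that did held more UMIs of it, counted without thinning. After thinning to 1000 UMIs a PDK4 UMI was found in 11%, 9.99% and 10.2% of basal-like nuclei of MGHS animals, against 20.8%, 21% and 21.4% in MGNS animals. Without thinning the shares were 43.6%, 39.1% and 41.0% in MGHS animals, against 64.7%, 65.3% and 63.1% in MGNS animals. Granular-like nuclei, which had the lowest PDK4 level, gave thinned shares of 0.381% to 0.502% in MGHS and 0.601% to 0.962% in MGNS animals. Median depths in basal-like nuclei were 7114, 6230 and 7431 UMIs in MGHS animals, against 8510.5, 7896 and 6450 UMIs in MGNS animals. In granular-like nuclei they were 7996 to 11018 UMIs. Basal-like nuclei with the transcript held 2.14, 1.70 and 2.24 PDK4 UMIs each in MGHS animals, against 3.61, 3.14 and 2.71 in MGNS animals.

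Counted over all 16 classes, the keratinocyte layers included, group means were mostly lower in MGHS on plain CPM. The mean level of PDK4 was lower in MGHS in 16 of 16 classes, that of SLC2A1, HK2 and LDHA in 15, that of SLC2A3 and PFKFB3 in 14, that of PFKP in 11 and that of HK1 in 10. The classes share the same 6 animals, and the share of all genes with a lower mean was not counted. The median log2 ratio over the genes tested ran from -0.26 in cluster 10 to 0.1 in macrophage or dendritic-like nuclei. After TMM scaling LDHA had log2 fold changes of 0.07 to 0.25 in the 4 keratinocyte layers, so nothing is read from these counts. PDK4 did not overlap in 8 classes, HK2 and PFKFB3 in 7, SLC2A3 in 6, SLC2A1 in 4, PFKP in 2, HK1 in 1 and LDHA in 0, always with MGHS lower. These counts include classes where the gene did not pass the count filter, namely both of PFKP, B or plasma-like nuclei for SLC2A1, glia-like nuclei for SLC2A3 and cluster 8 for HK2. The share of genes past the filter that did not overlap with MGHS lower was 20.2% in cluster 10, 12% in B or plasma-like, 10.2% in fibroblast-like nuclei and in cluster 11, 9.45% in smooth muscle or pericyte-like and 8.76% in lymphatic endothelial-like nuclei. It was 8.63% in cluster 8, 6.76% in blood endothelial-like nuclei, 5.75% in cluster 21, 5.14% in T or NK-like, 3.88% in macrophage or dendritic-like and 3.51% in glia-like nuclei. PDK4 had its highest mean in cluster 11, at 882, 1423 and 315 CPM in MGHS animals, against 542, 2520 and 1189 CPM in MGNS animals, which overlapped. Blood endothelial-like nuclei had 82.2, 142 and 51.5 CPM of PDK4 in MGHS animals, against 174, 503 and 151 CPM in MGNS animals, without overlap. HK2 in fibroblast-like nuclei had 1.85, 3.57 and 6.16 CPM in MGHS animals, against 18.1, 53.9 and 18.1 CPM in MGNS animals, without overlap. HK2 in macrophage or dendritic-like nuclei, its highest class, had 50.8, 31.1 and 25.5 CPM in MGHS animals, against 42.0, 57.6 and 127 CPM in MGNS animals, which overlapped. PFKFB3 in smooth muscle or pericyte-like nuclei had 16.9, 9.17 and 18.2 CPM in MGHS animals, against 44.2, 58.1 and 44.3 CPM in MGNS animals.

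Transcripts of other cell types were also present in keratinocyte-like nuclei, and those of T or NK cells differed between the groups. The 14 T or NK markers in the files summed to 191 to 216 CPM in MGHS animals, against 313 to 490 CPM in MGNS animals. All 14 had a lower mean in MGHS, 11 lay below every MGNS animal, and none was at 0. These sums were 1.98% to 2.86% of the level in T or NK-like nuclei in MGHS animals, against 3.08% to 5.06% in MGNS animals. SLC2A3 in keratinocyte-like nuclei stood at nearly the same share of its T or NK level, 0.798% to 3.12% in MGHS and 2.30% to 5.43% in MGNS animals. PFKP likewise stood at 1.56% to 3.51% in MGHS and 2.54% to 5.32% in MGNS animals. For these 2 genes the part of T or NK transcripts in the keratinocyte values was not tested. PFKFB3 stood at 5.28% to 12% of its T or NK level in MGHS and 12.3% to 34.5% in MGNS animals. SLC2A1 and HK2 were above their T or NK levels in every animal, at 128% to 276% and 125% to 1070%, and PDK4 at 448% to 1550%.

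**Figure D4:**
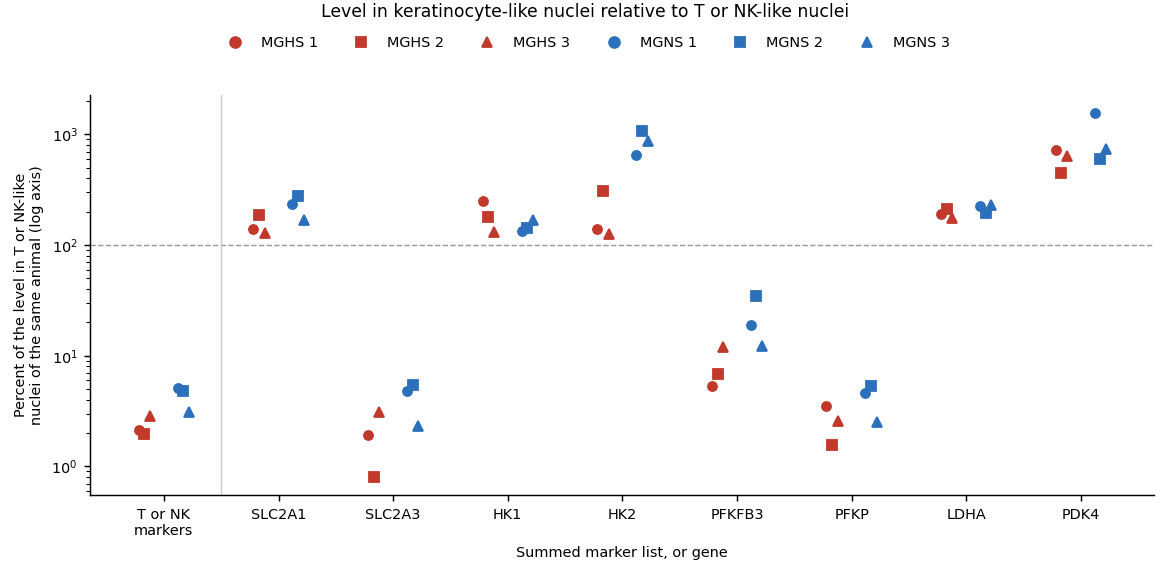
Level in all keratinocyte-like nuclei as a percentage of the level in T or NK-like nuclei of the same animal, on a log axis (y), for the sum of 14 T or NK markers and for each gene (x), with 1 point per animal. SLC2A3 and PFKP sit at the few percent of the markers, PFKFB3 above it, and the other 5 genes above the dashed line at 100%.

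A subset of 5801 keratinocyte-like nuclei (42.6% of 13626, median 7333 UMIs against 8358.5) held no UMI of any T or NK marker. It kept 28.3% of basal-like, 36.8% of spinous-like, 69.0% of granular-like and 26.6% of cycling nuclei. The mix of layers in the subset thus differed from that of all keratinocyte-like nuclei. Levels over all layers of the subset were as follows. There SLC2A1 had 6.83, 6.24 and 8.93 CPM in MGHS animals, against 17.7, 31.4 and 19 CPM in MGNS animals. HK2 had 1.87, 5.54 and 2.55 CPM in MGHS animals, against 12.5, 159 and 28.8 CPM in MGNS animals. PFKFB3 had 2.09, 2.67 and 3.40 CPM in MGHS animals, against 5.79, 24.5 and 6.68 CPM in MGNS animals. PDK4 had 21.7, 30.8 and 24.9 CPM in MGHS animals, against 87.5, 54.7 and 59.1 CPM in MGNS animals. SLC2A3 had 2.98, 1.58 and 3.40 CPM in MGHS animals, against 4.18, 6.84 and 8.55 CPM in MGNS animals. These 5 genes did not overlap. PFKP did not either, at 0.110, 0.495 and 0.319 CPM in MGHS animals, against 0.643, 0.701 and 0.622 CPM in MGNS animals. These levels were very low, with means of 0.308 and 0.655 CPM. Overlap of all genes was not counted in this subset. Over all keratinocyte-like nuclei 25.0% of all genes were lower in MGHS without overlap on plain CPM. Nothing is therefore read from the overlaps in this subset, over all layers or by layer. By layer the picture was less even. In basal-like nuclei without such a UMI, HK2 and PDK4 did not overlap, whereas SLC2A3 overlapped, with a log2 ratio of -0.37 against -1.29 in all basal-like nuclei. In spinous-like nuclei SLC2A1, SLC2A3, HK2, PFKFB3 and PDK4 did not overlap. In granular-like nuclei PFKFB3 and PDK4 did not overlap, whereas SLC2A1, SLC2A3 and HK2 overlapped. In cycling nuclei HK2 did not overlap, whereas PFKFB3 and PDK4 did. Only 396 of 1486 cycling nuclei were left, with a median of 4545 UMIs against 7555.5. PFKFB3 had 0, 2.78 and 8.75 CPM there in MGHS animals, against 0, 0 and 3.60 CPM in MGNS animals. At such levels its log2 ratio of 1.14, against -1.19 in all cycling nuclei, is not read further.

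Markers of other types moved less evenly. The 10 B or plasma markers summed to 58.4 to 91.2 CPM in MGHS and 71.6 to 86.9 CPM in MGNS animals, with 9 of 10 means lower in MGHS. The 12 macrophage or dendritic markers summed to 11 to 30.4 CPM in MGHS and 20.3 to 31.6 CPM in MGNS animals, with 11 of 12 means lower. The 11 fibroblast markers summed to 114 to 283 CPM in MGHS and 88.9 to 91.6 CPM in MGNS animals, with 1 of 11 means lower and no overlap between the groups. The 9 neutrophil markers summed to 1315 to 3870 CPM in MGHS and 4559 to 6098 CPM in MGNS animals, nearly all of it from S100 genes that stratified epithelia also express. Without these the sums were 5.89 to 11.8 CPM in MGHS and 5.57 to 6.81 CPM in MGNS animals. None of these markers was at 0 in all animals. Smooth muscle, endothelial and glial markers overlapped between the groups, and the part of these transcripts in the differences was not tested.

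The other genes of the pathway lay on both sides of 0. Of 117 genes in 7 lists, 104 were tested in all keratinocyte-like nuclei, and edgeR called 0 after adjustment over all genes, with 14 higher and 6 lower in MGHS at an unadjusted p under 0.05, beside 1493 higher and 1369 lower of all 16319 genes. DESeq2 called 7 of them, ADM, BNIP3L, CITED2, HIF1A, PDK3, PFKFB1 and SLC5A1, beside 6.17% of all genes. Their median log2 fold change was 0.02, the same as over all genes, with 55 above and 49 below 0. No list was tested as a set, and all lists were chosen with earlier results of these data known. In the groups of 6 other glucose carriers the median was -0.33, of 15 other glycolytic enzymes -0.04, of 20 pyruvate and glycolysis regulators 0.29 and of 20 hypoxia pathway genes 0.02. It was 0.15 for 4 genes of lactate and pyruvate export, 0.08 for 16 genes of glycogen and the pentose phosphate route, and 0 for 23 regulators and PPAR or FOXO targets. In spinous-like nuclei the medians were -0.80 over 3 other glucose carriers and -0.28 over 14 other glycolytic enzymes, of which 3 were above and 11 below 0. In the 4 layers the main edgeR fit called none of the 117 genes, and DESeq2 called 3 in basal-like, 7 in spinous-like, 8 in granular-like and 3 in cycling nuclei.

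The 2 genes of each list with the smallest p in all keratinocyte-like nuclei follow, none of them called by edgeR. SLC5A1, the sodium-coupled glucose carrier of apical membranes, had 13.3, 7.97 and 28.3 CPM in MGHS animals, against 82.3, 156 and 79.5 CPM in MGNS animals. Its log2 fold change was -2.46 ± 0.45 (SE, edgeR adjusted p = 0.130), and without MGHS 3 it passed the adjusted threshold. SLC2A13, a proton-coupled inositol carrier, had a log2 fold change of -0.60 ± 0.33 (SE). Among enzymes the values were 0.57 ± 0.19 for ADPGK, the ADP-dependent glucokinase, and -0.43 ± 0.19 for PGK1, phosphoglycerate kinase. Among pyruvate regulators they were 0.87 ± 0.24 for PDK3, a sister kinase of PDK4, and 0.69 ± 0.21 for MPC1, a subunit of the mitochondrial pyruvate carrier. For lactate export they were 0.87 ± 0.36 for the monocarboxylate carrier SLC16A1 and 0.60 ± 0.34 for its partner BSG. GBE1, the glycogen branching enzyme, had -1.04 ± 0.33 and RPIA, of the pentose phosphate route, 1.31 ± 0.48. HIF1A, the hypoxia-inducible factor subunit, had 52.9, 53.4 and 63.3 CPM in MGHS animals, against 122, 183 and 106 CPM in MGNS animals. Its log2 fold change was -1.02 ± 0.21 (SE, edgeR adjusted p = 0.141), and that of its antagonist CITED2 was 1.55 ± 0.34 (SE). CITED2 too passed the adjusted threshold in edgeR without MGHS 3. MLX, partner of the glucose-sensing factors, had 0.66 ± 0.19 and AKT2, a kinase of insulin signalling, 0.62 ± 0.20.

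**Figure D5:**
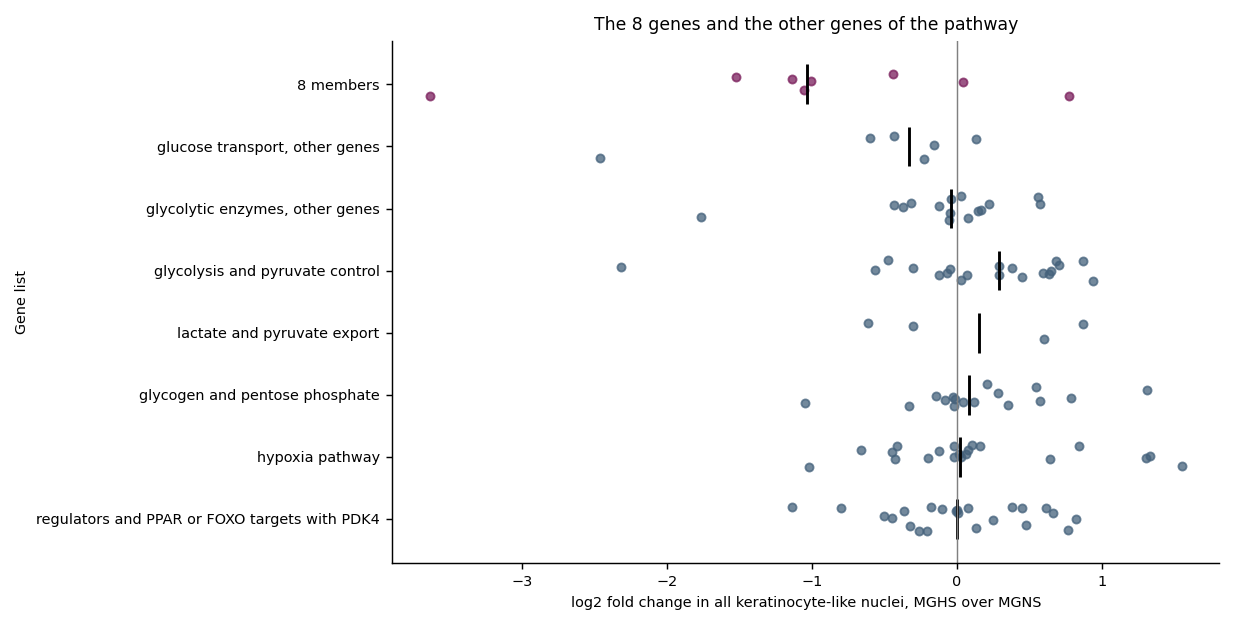
Log2 fold change of MGHS over MGNS in all keratinocyte-like nuclei (x) for the 8 genes and for the other genes of the pathway in 7 lists (y), 1 point per gene and a bar at each list's median. The 8 genes were chosen on this contrast and have a median of -1.03, whereas the medians of the other lists run from -0.33 to 0.29. The lists too were chosen with earlier results of these data known.

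Across the 16 class means (log2 of CPM + 10, mean of 6 animals), genes most like each of the 8 were found among 7552 or 7553 genes with at least 50 CPM in a class, as a description of classes that share libraries and depth. LDHA was closest to COX5A (r = 0.968), PPA1 (0.965) and NDUFS8 (0.964), of which COX5A and NDUFS8 code for respiratory chain subunits. PFKP was closest to KLHL5 (0.978), OXCT1 (0.969) and CEP85L (0.953). PFKFB3 was closest to TRAF1 (0.948), LPIN2 (0.940) and TNFRSF1B (0.938), and SLC2A3 to PREX1 (0.929), NLRC5 (0.923) and STX11 (0.916). PDK4 was closest to DNAI7 (0.903), ACADL (0.891), a fatty acid dehydrogenase, and RASSF8 (0.885). HK1 was close to PLAGL2 (0.900) and GLB1 (0.889). SLC2A1 was closest to SERPINB1 (0.885), IL17REL (0.882) and NADK (0.873), and HK2 was close to SCPEP1 (0.850) and HNMT (0.830).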

How the data were processed

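Each library came as a matrix of UMI counts, whole numbers that the authors deposited unscaled, per the file headers. The headers name Cell Ranger 8.0.0, whereas the submitters' processing notes name 2.1.1, and this was not resolved. No genome build is named in the sources used here. How reads shared by similar genes were counted is not stated, so close paralogs carry that uncertainty. Gene numbers were paired with symbols through a RefSeq gene table (ARS-UI_Ramb_v3.0), from which no coordinates were taken.

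From these counts, nuclei needed 300 detected genes or more and a mitochondrial share of 10% or less, and the 0.5% of barcodes with most UMIs in a library were dropped. Libraries held 38903073 to 59997793 UMIs in MGHS and 34418856 to 54819907 in MGNS animals. Scrublet, run in scanpy 1.11.5 with Python 3.11.15, marked doublets. In MGNS 1 and MGNS 2 it marked fewer than 0.5%, and there the best-scoring nuclei were removed at a rate of 0.8% for every 1000 nuclei. Clusters came from 2000 variable genes, 30 principal components, 5 neighbours per library and Leiden clustering at resolution 0.8 (igraph 0.11.9). SLC2A3 and PDK4 were among the variable genes. With the 8 genes and the pathway lists left out, 97.4% of nuclei kept their class. Since classes come from the same nuclei, levels between classes are described without a test.

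UMIs were added up per animal and class, the animal being the replicate. The fit was edgeR 4.0.16 in R 4.3.3, with low genes removed by filterByExpr at 10 counts, TMM scaling and a robust quasi-likelihood test of MGHS over MGNS. P-values were adjusted by Benjamini-Hochberg across all tested genes, at a threshold of 0.05. Each SE was derived as |log2 fold change| over the root of the F statistic. Shares of nuclei with a UMI are expectations at 1000 UMIs per nucleus. The fit was tested on simulated counts. DESeq2 1.42.0, other filters and scalings, left-out animals and a replicate block served as alternatives. The labels state no batch. The 8 genes and all lists were chosen with earlier results of these data known. Other genes are named by rule: in each pathway list those edgeR called in keratinocyte-like nuclei or, with none, the 2 with the smallest p, and for each of the 8 genes the 3 with the highest Pearson r over classes. Of these, a gene each for HK1 and HK2 is not reported here.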

Additional observations from a re-analysis of the deposited data

How the results depend on the processing

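Over the alternatives tried, 458 values for single genes stayed within the spread between replicates of their main value and 43 moved by more. These values were fold changes and shares of nuclei with a UMI, the shares taken at fewer UMIs per nucleus or without thinning. Such shares change with depth by construction, and most of the 43 were shares. The 43 is therefore not a count of unstable fold changes. None of the single genes was called by edgeR in the main fit, so a change of sign was not a reversed call. Some fold changes did change sign. PDK4 in granular-like nuclei, at -0.66, kept its sign in 12 of 13 alternatives and was 0.00 with doublets kept. The others lay near 0. HK1 kept its sign in 10 of 13 alternatives in basal-like and 12 of 13 in spinous-like nuclei. LDHA kept it in 12 of 13 in spinous-like and in granular-like nuclei and 13 of 15 in all keratinocyte-like nuclei. The number of genes called by edgeR was less stable than the fold changes. In all keratinocyte-like nuclei it was 0, and 1007 with DESeq2 (7 of them pathway genes), where genes with no adjusted p were not counted, and 13 with no filter on low counts. In basal-like nuclei it was 6, against 307 with DESeq2, 23 with no filter, 3 with doublets kept and 1 with clustering without the 8 genes and the pathway genes. In spinous-like nuclei it was 9, against 368 with DESeq2 and 139 with no filter. In granular-like nuclei it was 1, against 508 with DESeq2, 93 with no filter and 0 with doublets kept. In cycling keratinocyte-like nuclei it was 9, against 184 with DESeq2, 560 with no filter, 18 with DESeq2 size factors, 2 with doublets kept, 18 with at least 500 genes per nucleus and 4 with clustering without these genes. Leaving out 1 animal at a time gave 0 to 158 calls in all keratinocyte-like nuclei (0 to 2 pathway genes), 0 to 9 in basal-like, 0 to 14 in spinous-like, 0 to 38 in granular-like and 0 to 126 in cycling nuclei. The pathway genes called in a layer that way were SLC5A1 in spinous-like nuclei without MGHS 3 and PPARGC1A in cycling nuclei without MGNS 3. With no filter edgeR called 23 of 22517 genes in basal-like, 139 of 22192 in spinous-like, 93 of 22377 in granular-like and 560 of 20904 in cycling nuclei. Among them were PDK4 in basal-like, spinous-like and cycling nuclei and SLC2A1 and PFKFB3 in spinous-like nuclei. The same contrast chose these genes, so nothing is read from their calls. Of the pathway genes edgeR with no filter called HIF1A, MPC1, PGK1 and SLC5A1 in spinous-like nuclei. It called AKT2 in granular-like and GBE1, PDK3, PPARGC1A and TALDO1 in cycling nuclei. The cause was not tested. The highest counts came without MGHS 3 in all keratinocyte-like, spinous-like and granular-like nuclei, without MGHS 2 in basal-like and without MGNS 3 in cycling nuclei.

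Correlations of same-numbered deviations were -0.128, -0.067 and 0.022 in all keratinocyte-like nuclei, beside -0.07 to 0.155 for differently numbered animals. Same-numbered values ran from -0.069 to 0.151 in basal-like nuclei, beside -0.201 to 0.229 for differently numbered animals. In cycling nuclei they ran from -0.087 to 0.101, beside -0.166 to 0.168. With 3 animals per group they cannot settle whether replicate numbers pair the animals. A replicate block gave 0 calls in all keratinocyte-like nuclei. It gave 15 in basal-like, 2 in spinous-like, 0 in granular-like and 169 in cycling nuclei, the last of 10339 genes tested. PDK4, which this contrast chose, and the pathway genes GBE1, PDK3 and PPARGC1A were among those 169. Chosen after seeing the data were the sum with cluster 10, the nuclei without T or NK UMIs and the overlap on TMM-scaled CPM. In the alternatives for all keratinocyte-like nuclei, log2 fold changes ranged from -1.17 to -0.69 for SLC2A1, -1.33 to -0.76 for SLC2A3, -4.09 to -2.09 for HK2, -1.77 to -0.96 for PFKFB3, -1.24 to -0.99 for PDK4, 0.23 to 1.03 for HK1, -0.75 to -0.18 for PFKP and -0.06 to 0.13 for LDHA. With 3 animals per group and 13 to 54 PFKP UMIs per animal, depth limits what can be said of that gene.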
